A study of Mus musculus with 4 samples.

Results

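The 10 genes described here encode core transcription factors of blood stem cells, namely Tal1, Lyl1, Lmo2, Gata2, Runx1, Meis1, Hhex, Hlf, Mecom and Prdm16. They were chosen by name, with earlier results of these data known. Every probe set (the array's unit of measurement for a transcript) whose platform annotation gave 1 of these symbols and no other was taken, which gave 11 probe sets for the 10 genes. The table held 35556 probe sets and 19938 genes with a single-gene probe set. Mecom had 2 probe sets and each other gene had 1.

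The arrays, Affymetrix Mouse Gene 1.0 ST, measured RNA from Flt3(-) LSK cells, the lineage-negative, Sca-1 positive and c-Kit positive bone marrow fraction without surface Flt3 that holds blood stem cells. The GABPalpha-deficient group comprised 2 arrays from Mx1Cre-GABPa(FL/-) mice, which carried 1 floxed and 1 null allele of the gene for the DNA-binding subunit of the ETS factor GABP. The control group comprised 2 arrays from Mx1Cre-GABPa(FL/+) mice, with 1 floxed and 1 wild-type allele, so the controls can lose 1 allele and are not wild type. All mice were 6 to 8 weeks old, came from a stock backcrossed for 4 generations to C57/BL6, carried Mx1Cre and received pIpC, an interferon inducer that switches on this Cre in many interferon-responsive cell types, and the cells were sorted 4 days after the last dose. Single animals and pools cannot be told apart in the labels, so the p-values measure the spread between these samples, which may be technical.

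These factors form the regulatory core that keeps blood stem cells in an undifferentiated, self-renewing state. TAL1 and LYL1 are related basic helix-loop-helix proteins that bind DNA with an E-protein and are tied to GATA2 through the adaptors LMO2 and LDB1, often beside RUNX1 and the ETS factors FLI1 and ERG. MEIS1 binds DNA with PBX and HOX proteins, and HLF, MECOM and PRDM16 are known for their selective expression or requirement in stem cells.

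Sequence from the start of 4 of the genes is shown because these genes mark the ends of the pattern described below: Meis1 and Hhex had the largest differences, Tal1 had the smallest, and Lyl1 is the close relative of Tal1. Capitals mark a match to CCGGAAG, the core of the motif bound by GABP, or, in Tal1, to the GATA motif AGATAA, searched on both strands. Each sequence is from RefSeq on GRCm38.p6, written 5′ to 3′ along the gene. The Meis1 stretch (chr11:19018970-19018999, minus strand) is the 30 bases just before the annotated start, the Lyl1 stretch (chr8:84701207-84701422, plus strand) spans 216 bases, and the Hhex (chr19:37434591-37434840, plus strand) and Tal1 (chr4:115056176-115056425, plus strand) stretches are the 250 bases before the start.
Meis1: ctgttatggccaccactaCTTCCGGgttct
Lyl1: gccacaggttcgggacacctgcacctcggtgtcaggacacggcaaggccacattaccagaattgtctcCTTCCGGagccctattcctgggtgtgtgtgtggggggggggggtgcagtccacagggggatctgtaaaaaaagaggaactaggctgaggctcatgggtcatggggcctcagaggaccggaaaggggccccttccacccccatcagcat
Hhex: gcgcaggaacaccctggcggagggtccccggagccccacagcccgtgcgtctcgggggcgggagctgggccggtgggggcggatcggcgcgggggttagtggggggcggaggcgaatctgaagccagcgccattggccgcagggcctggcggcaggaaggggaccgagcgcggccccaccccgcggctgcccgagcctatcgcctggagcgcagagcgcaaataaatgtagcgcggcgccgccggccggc
Tal1: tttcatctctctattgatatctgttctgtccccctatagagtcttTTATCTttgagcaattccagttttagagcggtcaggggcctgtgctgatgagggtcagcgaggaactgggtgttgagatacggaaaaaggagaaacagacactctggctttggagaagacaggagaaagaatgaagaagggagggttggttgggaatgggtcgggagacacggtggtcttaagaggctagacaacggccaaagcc

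Promoter windows of 300 bases, from 250 before to 50 after a start, were at hand for 9 of the 10 genes, 13 windows in all, and none for Lmo2. The letters CCGGAAG occurred in the windows of Meis1 and Lyl1, 2 of 13, against 8.86% of 32851 windows over all genes. AGATAA occurred in 1 of 13 (Tal1; 11.2% of all windows), the RUNX motif TGTGGT in 2 (Meis1 and Runx1; 16.8%), the MEIS motif TGACAG in 1 (a Mecom window; 19.2%), and the E-box CANNTG in 8 (72.3%). The HLF motif TTACGTAA occurred in 0 of 13, against 0.119% of all windows. These matches describe the letters of these windows only, and the Meis1 window lies inside the longest annotated span of its gene.

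The table's quartiles were close but not equal, with medians of 5.93 and 6.01 (log2) on the GABPalpha-deficient arrays and 5.87 and 5.91 on the control arrays. Lower quartiles were higher on the GABPalpha-deficient arrays (4.77 and 4.86) than on the control arrays (4.68 and 4.73). Upper quartiles were lower on the GABPalpha-deficient arrays (7.24 and 7.18) than on the control arrays (7.39 and 7.33). Across probe sets, r was 0.944 between the GABPalpha-deficient arrays, 0.960 between the control arrays and 0.923 to 0.942 between groups. The Gabpa probe set, which checks the labels, read 6.43 and 7.85 on the GABPalpha-deficient arrays against 8.43 and 7.28 on the control arrays, so GABPalpha-deficient replicate 2 lay above control replicate 2 (difference −0.71, SE 0.68, limma adjusted p = 0.605; −1.42 to 0.0021 with 1 array left out). The sources used here do not give the deleted exons, and a probe set outside them would check nothing, so groups are named by their labels. The gate gene Kit, the stem cell factor receptor, read 7.70 and 8.50 on the GABPalpha-deficient arrays against 10.21 and 10.21 on the control arrays. Flt3, whose surface protein the gate excludes, read 5.68 and 5.95 on the GABPalpha-deficient arrays against 8.43 and 9.26 on the control arrays. Ly6a, the Sca-1 gene, was not analysed here for want of a probe set of its own. Of 6 lineage genes measured, the T cell genes Cd4, Cd8a and Cd3e and the granulocyte gene Ly6g were higher on both GABPalpha-deficient arrays than on both control arrays, as were 38.9% of all probe sets. Their differences were 0.53 (SE 0.15), 0.60 (SE 0.21), 0.25 (SE 0.16) and 0.27 (SE 0.14), Cd4 alone had an unadjusted p under 0.05 in limma's fit, and the part of such cells in the results was not tested. Itgam differed by −0.27 (SE 0.20). Ptprc, the pan-leukocyte gene, read 5.50 and 6.89 on the GABPalpha-deficient arrays against 7.55 and 7.08 on the control arrays, a difference of −1.11 that was −0.42 without GABPalpha-deficient replicate 1 and −1.81 without GABPalpha-deficient replicate 2.

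The comparison asked how the expression of these factors differed in the stem-cell-enriched fraction of GABPalpha-deficient mice. Of the 10 genes, 9 were lower on both GABPalpha-deficient arrays than on both control arrays and 1, Tal1, overlapped. Over all probe sets, 14.0% were lower without overlap, and 20.2% among the brighter 50% of probe sets. Mecom was counted by the brighter of its 2 probe sets, whose rank rests on control replicate 1, and by the other one 8 of 10 genes were lower without overlap and the members' median difference was −0.75. In limma's fit with Benjamini-Hochberg adjustment over all probe sets, 0 of 10 genes passed an adjusted p of 0.05, as did 0% of all probe sets, and adjusted p ran from 0.206 to 0.836. At an unadjusted p under 0.05, 6 of 10 (Hhex, Meis1, Hlf, Gata2, Runx1 and Lmo2) were lower and 0 higher, against 5.25% of all probe sets lower and 6.64% higher, and 7.58% lower in the brighter 50%. The median difference was −0.90 (log2, GABPalpha-deficient minus control), against 0.15 over all probe sets. Cyclic loess moved the median of all probe sets to −0.0045 and turned the lower and higher counts over all probe sets to 2349 and 1191, against 1865 and 2360 as deposited, and subtracting array medians gave 2185 and 1537. Relative to the median of all probe sets the members' median was −1.04.

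**Figure D1:**
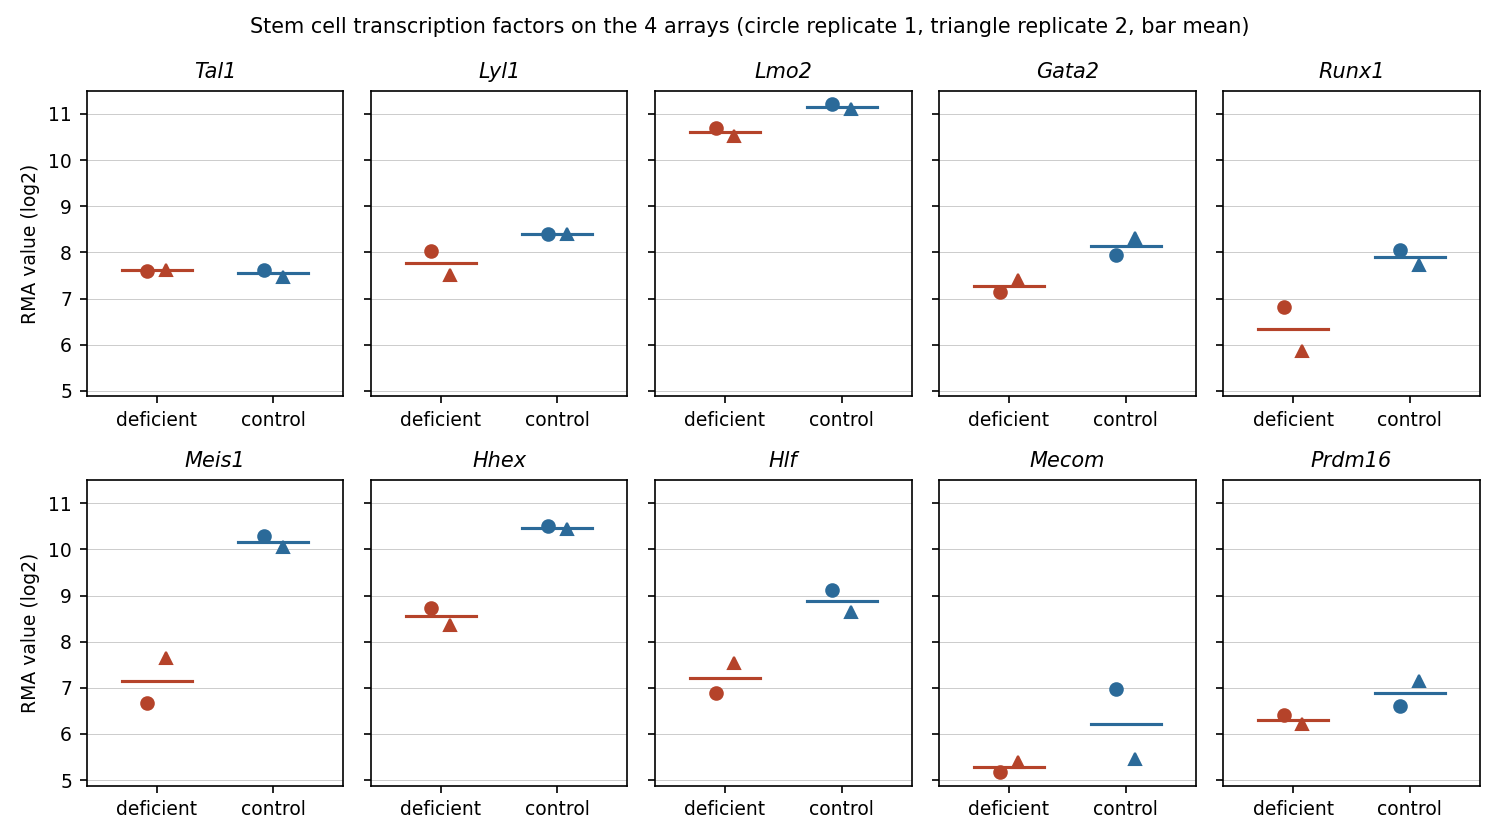
RMA values (log2, vertical axis) of the 10 genes on each array, with GABPalpha-deficient arrays on the left and control arrays on the right of each panel. Circles are replicate 1, triangles replicate 2 and bars the group means of 2 arrays; the groups are apart for every gene but Tal1, by 0.056 for Mecom and by 2.40 for Meis1.

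Among the parts of the TAL1 complex, the probe sets did not move alike. Tal1 (probe set 10507131), the basic helix-loop-helix factor that is required to form blood stem cells, read 7.60 and 7.62 on the GABPalpha-deficient arrays and 7.63 and 7.47 on the control arrays. Its values on all arrays lay within 0.16 of one another, and the groups overlapped. The difference was 0.062 (SE 0.15, limma adjusted p = 0.836), or −0.084 relative to the median of all probe sets; it was −0.019 with array medians subtracted and −0.017 without control replicate 2, so it has no stable sign.

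Lyl1 (10573419), the paralog of Tal1 that sustains adult stem cells alongside it, read 8.03 and 7.51 on the GABPalpha-deficient arrays and 8.41 and 8.39 on the control arrays. The control arrays lay 0.013 apart and the GABPalpha-deficient arrays 0.51, with replicate 2 the lower. The difference was −0.63 (SE 0.23, adjusted p = 0.421 in limma's fit), and −0.37 without GABPalpha-deficient replicate 2. Whether Tal1 and Lyl1 differed from each other was not tested.

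Lmo2 (10474201), the LIM-domain adaptor that bridges TAL1 and GATA factors, read 10.69 and 10.52 on the GABPalpha-deficient arrays and 11.21 and 11.11 on the control arrays. The groups were apart, with narrow spread in both. The means were 10.60 ± 0.11 on the GABPalpha-deficient arrays and 11.16 ± 0.066 on the control arrays (SD, n = 2 each), a 1.47-fold lower value (difference −0.56, SE 0.15, adjusted p = 0.40 in limma's fit).

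Gata2 (10539873), the zinc finger factor needed for stem cell survival and expansion, read 7.14 and 7.39 on the GABPalpha-deficient arrays and 7.95 and 8.32 on the control arrays. The highest GABPalpha-deficient array lay 0.56 below the lowest control array. The GABPalpha-deficient mean of 7.26 ± 0.18 and the control mean of 8.13 ± 0.26 (SD, n = 2 each) differed by −0.87 (SE 0.21, adjusted p = 0.385 in limma's fit).

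Runx1 (10441003), the Runt-domain factor that starts definitive blood formation and is often mutated in leukemia, read 6.82 and 5.86 on the GABPalpha-deficient arrays and 8.05 and 7.74 on the control arrays. Both GABPalpha-deficient arrays were lower than both controls, but they lay 0.96 apart. The difference of −1.55 (SE 0.39, adjusted p = 0.389 in limma's fit), 2.93-fold, was −1.07 without GABPalpha-deficient replicate 2 and −2.03 without GABPalpha-deficient replicate 1.

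The homeobox and bZIP factors had the largest differences. Meis1 (10384504), a TALE homeobox factor required for stem cell maintenance and a cofactor of HOXA9 in leukemia, read 6.66 and 7.65 on the GABPalpha-deficient arrays and 10.29 and 10.05 on the control arrays. The groups stood 2.40 apart, more than the 0.98 between the GABPalpha-deficient arrays. The difference was −3.01 (SE 0.39, adjusted p = 0.252 in limma's fit), an 8.07-fold lower value, and ran from −3.50 to −2.52 with each array left out in turn.

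Hhex (10462818), a homeobox repressor of early blood and lymphoid progenitors, read 8.73 and 8.36 on the GABPalpha-deficient arrays and 10.50 and 10.43 on the control arrays. The gap of 1.71 between the groups exceeded the spread within either. Hhex had the smallest p of the 10 genes, with a difference of −1.92 (SE 0.19, adjusted p = 0.206 in limma's fit) or 3.78-fold.

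Hlf (10389786), a PAR-family bZIP factor that in mouse and human marrow marks the stem cell end of the hierarchy, read 6.89 and 7.53 on the GABPalpha-deficient arrays and 9.11 and 8.65 on the control arrays. The GABPalpha-deficient arrays lay 0.64 apart and the control arrays 0.46, and the groups were 1.11 apart. The difference was −1.67 (SE 0.32, adjusted p = 0.327 in limma's fit), 3.17-fold. All 3 genes are thus lower in the bulk RNA, where fewer cells that express a gene and less RNA per cell cannot be told apart.

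The related zinc finger genes Mecom and Prdm16 gave weaker separation. Mecom encodes EVI1 and the longer MDS1-EVI1 protein, and both it and PRDM16 carry PR domains and are needed by adult stem cells. The brighter Mecom probe set (10497590) read 5.18 and 5.40 on the GABPalpha-deficient arrays and 6.97 and 5.45 on the control arrays. Control replicate 1 stood alone, and the other three arrays lay close together. The difference of −0.92 (SE 0.57, adjusted p = 0.490 in limma's fit) was −0.16 without control replicate 1 and −1.68 without control replicate 2. The other Mecom probe set (10497608), annotated to partly different transcripts, read 5.44 and 5.19 on the GABPalpha-deficient arrays and 5.30 and 5.66 on the control arrays, overlapped, and differed by −0.16 (SE 0.21, adjusted p = 0.689 in limma's fit). The second probe set lay below the array's median on all 4 arrays, and the first did on every array but control replicate 1.

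Prdm16 (10519028) read 6.41 and 6.21 on the GABPalpha-deficient arrays and 6.61 and 7.15 on the control arrays. The groups were 0.20 apart, less than the 0.54 between the control arrays. The difference was −0.57 (SE 0.25, adjusted p = 0.435 in limma's fit) and −0.29 without control replicate 2.

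Neither array of the GABPalpha-deficient group was the lower one throughout. Replicate 1 held the lower value for Meis1, Hlf, Gata2, Mecom and Tal1, and replicate 2 for Hhex, Runx1, Lmo2, Lyl1 and Prdm16. Averaged over the 10 genes, the log2 value was 7.41 on both GABPalpha-deficient arrays, against 8.67 and 8.48 on the control arrays. With any 1 array left out, 9 or 10 of the 10 genes were lower without overlap, against 23.7% to 25% of all probe sets. In the same fits 4 to 6 genes were lower at an unadjusted p under 0.05, against 4.47% to 6.45% of all probe sets. The spread over 1 array left out was widest for Mecom, whose difference ran from −1.68 to −0.16.

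**Figure D2:**
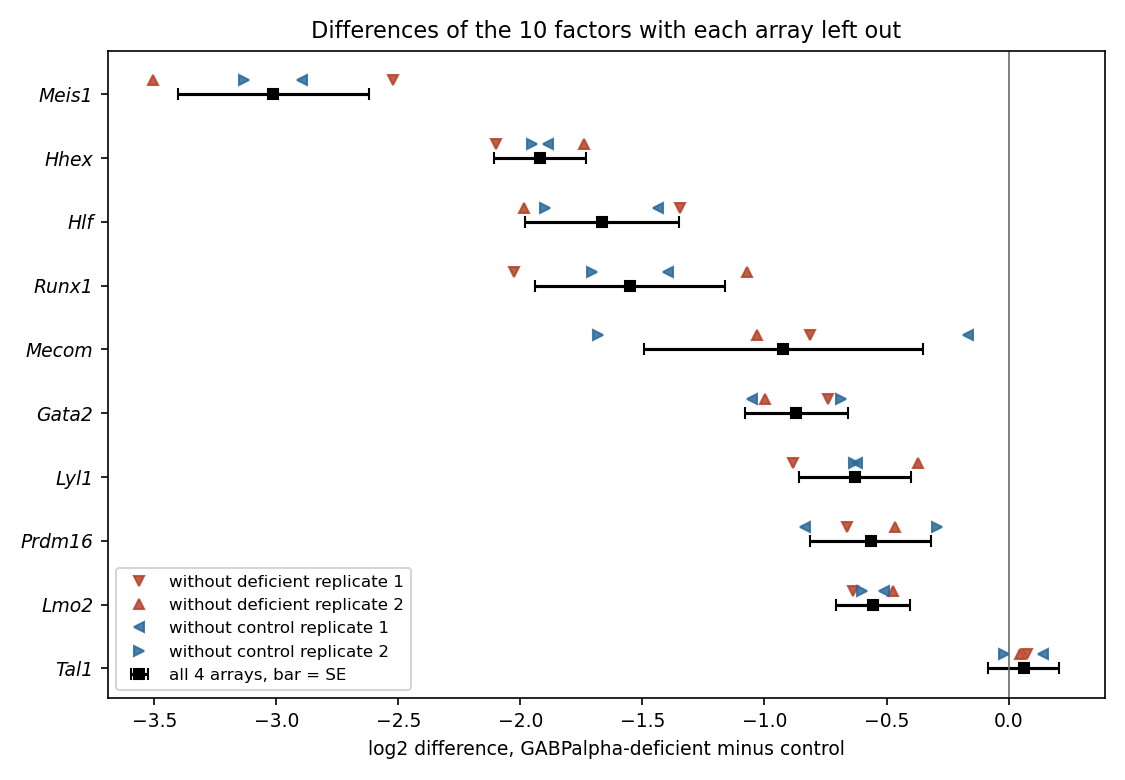
Log2 difference, GABPalpha-deficient minus control (horizontal axis), for each of the 10 genes. Black squares use all 4 arrays with the SE of limma's fit, and coloured triangles leave out 1 array; Meis1, Hhex, Hlf and Runx1 stay below −1.0 throughout, Mecom spreads from −1.68 to −0.16, and Tal1 lies near 0.

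Genes that work with these factors, or against them, did not share 1 direction. Of 16 partners of the TAL1-LMO2 complex, 5 were lower and 5 higher at an unadjusted p under 0.05, against 5.25% and 6.64% of all probe sets. Their median was −0.17, and 0 passed the adjusted threshold in limma's fit. Fli1, the ETS factor that binds beside the complex, read 6.55 and 7.66 on the GABPalpha-deficient arrays and 10.48 and 10.53 on the control arrays (difference −3.40, SE 0.43). Gata1, the erythroid and megakaryocytic relative that replaces GATA2 during differentiation, read 8.87 and 8.52 on the GABPalpha-deficient arrays and 7.52 and 7.54 on the control arrays (difference 1.16, SE 0.19). Id3 and Id1, which encode inhibitors that sequester the E-proteins TAL1 needs, differed by 1.38 (SE 0.30) and 0.96 (SE 0.25). For all 4 genes, named for the smallest p in the list, the groups did not overlap. Of the 16 genes, 6 were lower and 6 higher without overlap, against 14.0% and 38.9% of all probe sets. Gata2 and Gata1 differed in opposite directions, and a test of that contrast was not made.

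Of 7 measured partners of MEIS1 and RUNX1, 2 were lower and 0 higher at an unadjusted p under 0.05 (median −0.34). Over all probe sets, 5.25% were lower and 6.64% higher at that p. Cbfb, the subunit that stabilizes RUNX1 on DNA, read 8.03 and 7.52 on the GABPalpha-deficient arrays and 8.63 and 8.70 on the control arrays (difference −0.89, SE 0.23). Hoxa7 and Hoxa9, HOX partners of MEIS1, differed by −0.50 (SE 0.14) and −0.52 (SE 0.25), and the PBX gene Pbx2 by −0.26 (SE 0.23). Hoxa9 was at −0.80 without GABPalpha-deficient replicate 1 and −0.23 without GABPalpha-deficient replicate 2, and Pbx2 at −0.51 and −0.0051 without the same arrays. Meis1 and Runx1 thus had larger differences than any of these named partners, each on its own probe set's scale.

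Of 12 measured corepressors, 0 were lower and 3 higher at an unadjusted p under 0.05 (median 0.18). The shares of all probe sets, for this list and the relatives below, were 5.25% lower and 6.64% higher, and the median over all probe sets was 0.15. Gfi1b, a repressor of erythroid and megakaryocytic cells, differed by 0.81 (SE 0.18), the Groucho-family gene Tle1 by 0.73 (SE 0.18), the histone deacetylase Hdac3 by 1.06 (SE 0.35) and the scaffold Sin3a by −1.0 (SE 0.42), or −0.53 without GABPalpha-deficient replicate 1. Among 14 measured relatives from the members' protein families, 0 were lower and 2 higher (median 0.19). Meis2 was at 0.49 (SE 0.15), Prdm1 at 0.60 (SE 0.19), Nhlh2 at 0.44 (SE 0.16) and Tal2 at 0.37 (SE 0.19), or 0.21 without control replicate 1. With cyclic loess Meis2 was at 0.28, Prdm1 at 0.40, Nhlh2 at 0.23 and Tal2 at 0.15. These 4 genes read below the array's median on every array.

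Of 17 measured genes reported as targets of these factors in blood cells, 9 were lower and 2 higher at an unadjusted p under 0.05. The shares of all probe sets were 5.25% lower and 6.64% higher, and the median of the 17 genes was −0.86. Cd34, a surface sialomucin of progenitors, read 8.00 and 7.53 on the GABPalpha-deficient arrays and 11.30 and 11.31 on the control arrays (difference −3.54, SE 0.22). Itga2b, the integrin CD41 that RUNX1 and GATA factors control, read 7.13 and 6.97 on the GABPalpha-deficient arrays and 8.65 and 9.03 on the control arrays (difference −1.79, SE 0.20). Flt3, a target of MEIS1 and HOXA9, differed by −3.03 (SE 0.35). Klf1, an erythroid target of GATA1 and TAL1, read 9.68 and 9.65 on the GABPalpha-deficient arrays and 7.90 and 7.90 on the control arrays (difference 1.77, SE 0.14). Adjusted p over all probe sets lay between 0.169 and 0.931 for these 17 genes, and 0 passed in limma's fit.

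**Figure D3:**
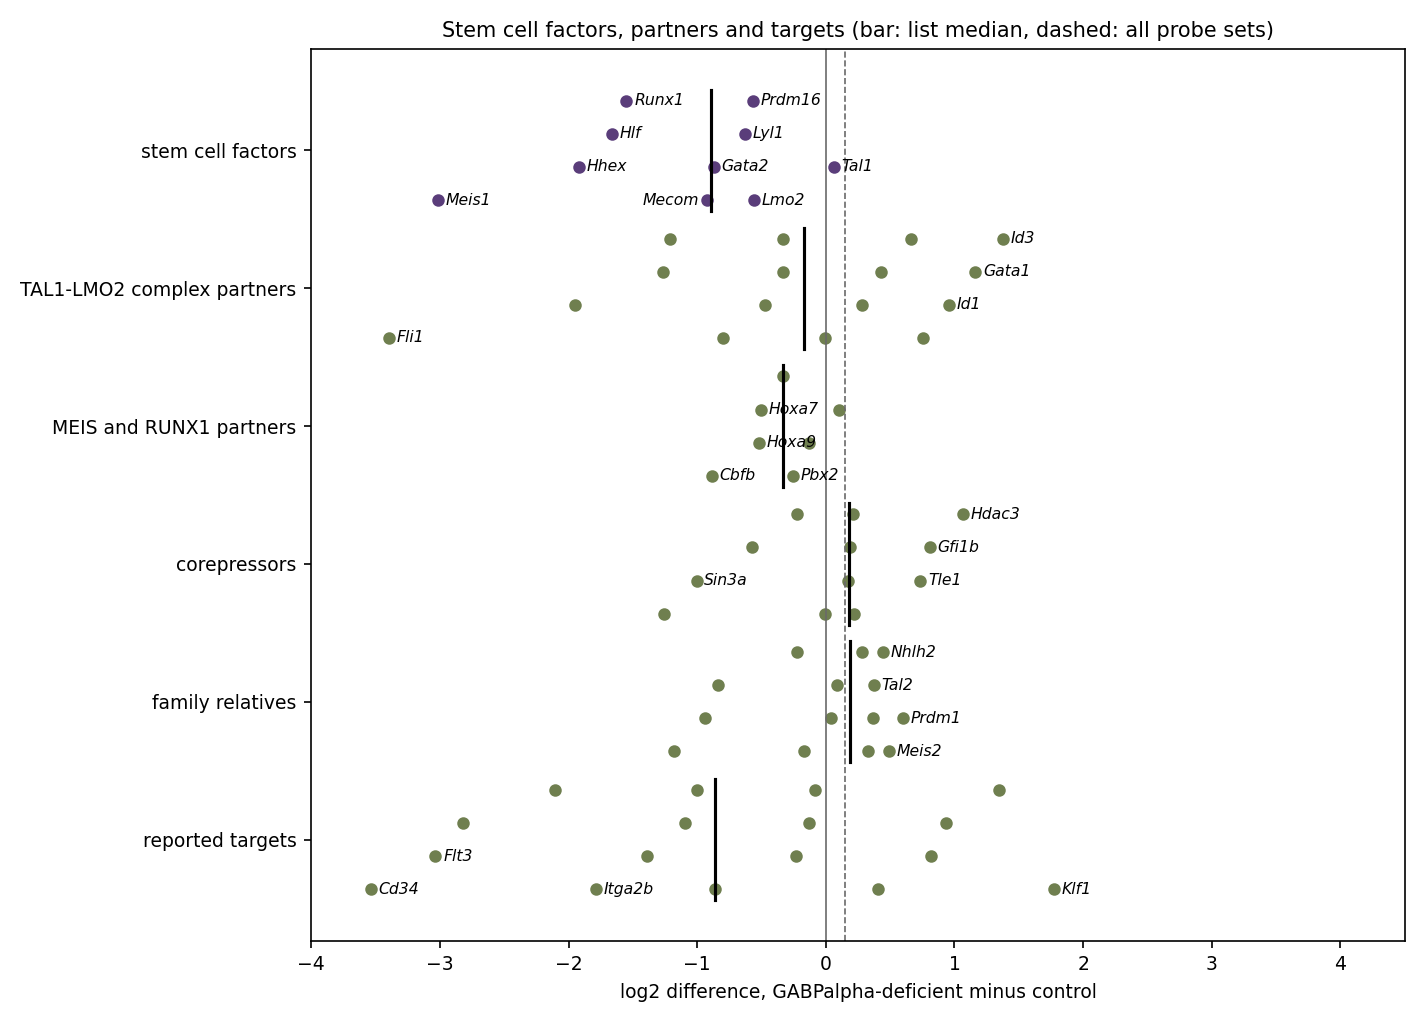
Log2 difference, GABPalpha-deficient minus control (horizontal axis), for the 10 stem cell factors and 5 lists of related genes, 1 dot per gene, with labels for the named genes. Black bars are list medians and the dashed line is the median of all probe sets (0.15). The medians of the stem cell factors (−0.90) and reported targets (−0.86) lie left of 0. Those of corepressors (0.18) and relatives (0.19) lie close to the dashed line.

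By likeness of profile (the root mean square distance between mean-centred log2 values over the 4 arrays), the genes nearest to Meis1 were Plek (0.110), Tec (0.118), Ssh2 (0.163), Arhgef6 (0.210) and Sinhcaf (0.214). Their differences lay between −3.06 and −2.60, and each read lower on GABPalpha-deficient replicate 1 than on replicate 2, as Meis1 did. Plek, pleckstrin, is a protein of platelets and leukocytes, and Tec is a kinase of blood cells. The genes nearest to Tal1 were Abca16, Olfr1276, Amot, Gdf9 and Oas1f, at 0.0068 to 0.014; these are genes with differences of 0.036 to 0.074, and they read between 3.83 and 5.69 on all arrays. With 4 arrays such likeness is a description.

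Markers of other cell types were read on the same arrays, where 66.3% of all probe sets had a difference above 0 and 33.7% below 0. Erythroid markers were above 0 for 16 of 16 measured genes, with a median difference of 1.51. At an unadjusted p under 0.05 in limma's fit, 11 were higher and 0 lower, against 6.64% and 5.25% of all probe sets. Their summed linear signal was 14897 and 17029 on the GABPalpha-deficient arrays against 5390 and 5285 on the control arrays. Ank1, the ankyrin of red cells, differed by 2.13 (SE 0.15), Aqp1, a water channel, by 2.15 (SE 0.19), and Klf1 as given above. Several of the 10 factors are also used outside stem cells, Tal1, Lmo2 and Gata2 among them, which erythroid, mast or endothelial cells express. The part of these cells in the values of Tal1, Lmo2 or any other member was not tested.

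Macrophage markers were above 0 for 12 of 12 genes (median 0.79), with summed signals of 3252 and 1853 on the GABPalpha-deficient arrays against 955 and 1098 on the control arrays. Vcam1, an adhesion molecule of erythroblast-island macrophages, differed by 2.10 (SE 0.32), Cd5l by 2.09 (SE 0.34) and the complement gene C1qa by 1.67 (SE 0.32). Mast cell and basophil markers were above 0 for 8 of 10 genes (median 0.77). Of these 10 genes, 2 were higher and 0 lower at an unadjusted p under 0.05, against 6.64% and 5.25% of all probe sets. Cpa3 and Hdc lay below 0, at −0.75 (SE 0.75) and −0.45 (SE 0.30), and overlapped. The sums were 3709 and 2079 on the GABPalpha-deficient arrays against 1117 and 1528 on the control arrays. The granzyme gene Gzmb differed by 1.73 (SE 0.20) and Mcpt8 by 0.83 (SE 0.24), whereas Mcpt4 read 10.16 and 6.75 on the GABPalpha-deficient arrays against 5.0 and 5.27 on the control arrays, a difference of 3.32 that was 1.61 without GABPalpha-deficient replicate 1 and 5.02 without GABPalpha-deficient replicate 2. The share above 0 in this list is to be read against the 66.3% of all probe sets.

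Endothelial and stromal markers were above 0 for 8 of 12 genes, close to the share of all probe sets (median 0.45). The sums were 2778 and 2250 on the GABPalpha-deficient arrays against 1270 and 1172 on the control arrays. Such sums weigh the brightest genes most. Sparc, a matrix protein, read 10.38 and 9.98 on the GABPalpha-deficient arrays against 6.19 and 6.56 on the control arrays. Sparc differed by 3.80 (SE 0.24) and Kdr, a VEGF receptor, by 0.82 (SE 0.16). Tek, the receptor TIE2 shared by endothelium and stem cells, differed by −1.12 (SE 0.22). Tie1, Pecam1 and Emcn of this list also lay below 0, at −0.55 (SE 0.27), −0.50 (SE 0.63) and −0.17 (SE 0.75). The groups did not overlap for Tie1 but did for Pecam1 and Emcn. Megakaryocyte markers, which share regulators with stem cells, were below 0 for 9 of 9 measured genes (median −0.72), with sums of 2756 and 1952 on the GABPalpha-deficient arrays against 5598 and 6244 on the control arrays. Itga2b is given above, Vwf differed by −0.90 (SE 0.15) and Nfe2 by −1.0 (SE 0.24). No listed marker was at 0 on any array, as every probe set carries a background value, so presence cannot be read from these levels.

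**Figure D4:**
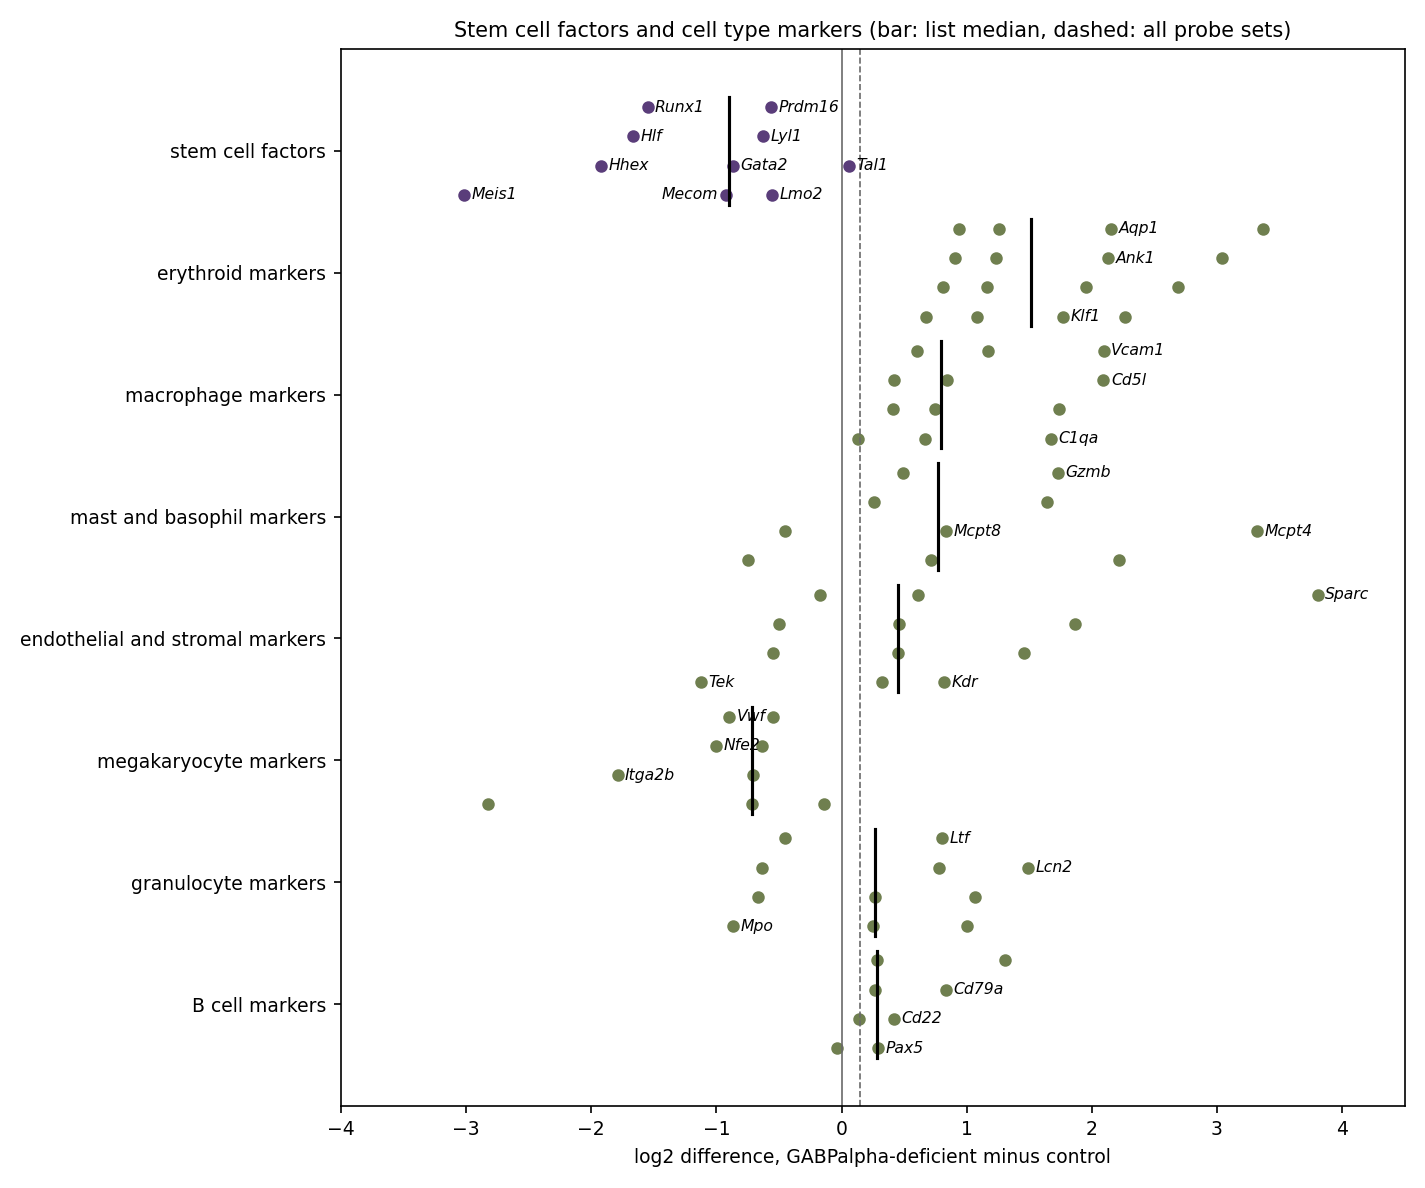
Log2 difference, GABPalpha-deficient minus control (horizontal axis), for the 10 stem cell factors and 7 lists of cell type markers, 1 dot per gene, with black bars for list medians and a dashed line for the median of all probe sets (0.15). Every erythroid and macrophage marker lies right of 0 and every megakaryocyte marker left of it, beside 9 of 10 stem cell factors.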

How the data were processed

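The authors deposited 1 log2 expression value per probe set and array, made with RMA and Partek per the submitters' processing notes, which state neither versions nor roles. Per the labels, 800 pg to 50 ng of RNA was amplified into biotinylated cDNA with a whole-transcript kit, which can alter the relative signal of low transcripts. Values ran from 1.98 to 13.67 and were used as deposited, and RMA's between-array scaling assumes that most probes do not shift. Their genome build was not given in the sources used here. All 4 columns matched a sample by its identifier.

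Probe sets were named from the platform annotation, with symbols updated by gene number through RefSeq (GRCm38.p6). Of 35556 probe sets 21789 had 1 symbol, 1621 several and 12146 none. The probe set of highest mean stood for a gene. Groups were compared with limma 3.58.1 in R 4.3.3 (lmFit, eBayes, genotype only, two-sided), with Benjamini-Hochberg adjustment over all probe sets at 0.05. Differences carry the SE of that fit. The fit was also tested on simulated data. Python 3.11.15 and matplotlib 3.10.9 were used for tables and plots. The arrays carry no read depth, and their number limits the precision.

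The members and lists were chosen with earlier results of these data known. The text names all members, the 4 genes of smallest p in each list of related genes, the 3 of smallest p in each marker list, Kit, Flt3, Ly6a and Gabpa, and the 5 genes most like the members of largest and of most positive difference. Cd3e, Cd4, Cd8a, Itgam, Ly6g and Ptprc, outside that rule, are given as lineage genes of the gate and were chosen after their values were seen. Cpa3, Hdc, Tie1, Pecam1 and Emcn, also outside it, are given because they lay below 0 in their marker lists. Alternatives comprised cyclic loess, array centring, a filter on dim probe sets, another prior variance, a replicate block, each array left out, averaged probe sets, and a fit to single-gene probe sets.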

Additional observations from a re-analysis of the deposited data

How the results depend on the processing

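In limma's fits 0 of the 10 genes passed the adjusted threshold under any of 11 other settings, and the lowest adjusted p of a member was 0.147, for Hhex in the fit to single-gene probe sets. The number lower at an unadjusted p under 0.05 was 6 with all arrays (5.25% of all probe sets lower), 8 with cyclic loess (6.61%), 7 in the fit to single-gene probe sets (6.81%) and 4 to 6 with 1 array left out (4.47% to 6.45%). The members' median of −0.90 became −1.03 with cyclic loess, −0.98 with array medians subtracted, −0.75 with averaged probe sets and, chosen after seeing the data, −0.75 with Mecom by its other probe set, and ran from −1.18 to −0.85 with 1 array left out. Tal1 changed sign, at −0.019 with array medians subtracted and −0.017 to 0.14 with 1 array left out, and so did Gabpa, at −1.42 to 0.0021 with 1 array left out. The count of all probe sets higher at an unadjusted p under 0.05, 2360 as deposited, was 1191 with cyclic loess, 1537 with array medians subtracted, 964 of the brighter 17778, 1341 with the replicate block, 714 without control replicate 1 and 1053 without control replicate 2. The causes were not tested. Same-numbered arrays did not deviate together (r = −0.088 over 35556 probe sets). With 2 arrays a group, that value cannot show whether the replicate numbers pair the samples. With the replicate block 6 members were lower at an unadjusted p under 0.05 (4.69% of all probe sets) and the median was −0.90. The filter on dim probe sets left 9 members, without Mecom. With 2 arrays a group 0 of 35556 probe sets passed the adjusted threshold, although differences ran from −5.92 to 6.32.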

Other observations

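Granulocyte markers differed in both directions on the same arrays. Of 11 genes, 7 were above 0 and 4 below, beside 66.3% of all probe sets above 0. At an unadjusted p under 0.05, 1 was higher and 1 lower, against 6.64% and 5.25% of all probe sets. Mpo, the myeloperoxidase of early granulocyte precursors, read 11.85 and 11.47 on the GABPalpha-deficient arrays and 12.48 and 12.56 on the control arrays (difference −0.86, SE 0.20). Lcn2, a protein of late neutrophil granules, read 7.22 and 8.51 on the GABPalpha-deficient arrays and 6.41 and 6.35 on the control arrays (difference 1.49, SE 0.48), and Ltf, lactoferrin of the same granules, differed by 0.81 (SE 0.34). Without GABPalpha-deficient replicate 2 Lcn2 was at 0.85 and Ltf at 0.44. Of 8 measured B cell genes, 7 were above 0 and 1 below, 1 was higher at an unadjusted p under 0.05, and the median was 0.29. Cd79a, a part of the B cell receptor, differed by 0.84 (SE 0.16), Cd22 by 0.42 (SE 0.16) and the B cell factor Pax5 by 0.29 (SE 0.14). With cyclic loess Cd79a was at 0.62, Cd22 at 0.20 and Pax5 at 0.11. None of these genes passed the adjusted threshold in limma's fit, in which 0 probe sets were called.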
